A study of Mus musculus with 12 samples.

Results

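In primary mouse skin fibroblasts, 9 genes of bone morphogenetic protein (BMP) signalling were followed: the ligands Bmp2, Bmp4 and Bmp6, the secreted antagonists Grem1 and Nog, the pseudoreceptor Bambi, and the target genes Id1, Id2 and Id3. They were chosen by name, and all 9 were found among the 21556 genes of the count table. The RNA-seq data comprise 12 libraries, 3 in each of 4 groups. WT cells came from C57BL/6 mice and Nox4 KO cells from B6.129-Nox4tm1Kkr/J mice, a constitutive knockout of NADPH oxidase 4 made by gene targeting, and both were grown from abdominal skin. Within each genotype, control cells were left without TGF-β2 and stimulated cells received it at 10 ng/ml for 24 h, after 24 h of starvation. The 2 genotypes were bred as separate litters from WT and KO littermates, so genotype and litter cannot be told apart. The age and sex of the animals that gave the cells, and whether replicates were separate cultures, are not given in the sources used here, so p-values measure the spread between these libraries.

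BMPs are secreted ligands of the TGF-β family that bind type I and type II serine/threonine kinase receptors. The receptors phosphorylate SMAD1, SMAD5 and SMAD9, which enter the nucleus with SMAD4 and switch on target genes, the Id genes being the best known. Id proteins lack a DNA-binding domain and hold E proteins and other helix-loop-helix factors away from DNA. Gremlin 1 and Noggin bind BMPs outside the cell and keep them from their receptors, while Bambi resembles a type I receptor without the kinase. In fibroblasts, BMP signalling is known as a counterpart of TGF-β signalling in the change to myofibroblasts.

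Library totals lay between 35118344 and 43796260 counts. Levels are given as RPKM, reads scaled by the length of the merged exons and by the total of the library. A gene was tested when its mean reached 1 RPKM in at least 1 of the groups compared, with edgeR's quasi-likelihood test and Benjamini-Hochberg adjustment over all genes tested. A gene passed at an adjusted p under 0.05 and was called when it also differed by at least 2-fold. The stimulation could be read from other genes: Ccn2 and Nox4 were called higher in both genotypes, while Acta2 had a log2 fold change of 0.13 (adjusted p = 0.664) in WT and -0.06 (adjusted p = 0.820) in Nox4 KO. Reads of Nox4 were counted in Nox4 KO libraries too, at 0.64 to 1.40 RPKM in control and 4.39 to 6.85 RPKM with TGF-β2, against 1.31 to 2.42 and 8.56 to 16.3 RPKM in WT. The fibroblast markers Col1a1, Col1a2, Pdgfra, Thy1, Dcn and Lum summed to 3592 to 5825 RPKM per library. Within that list Pdgfra fell in both genotypes, from at least 32.4 RPKM in WT control to at most 4.64 RPKM with TGF-β2 (log2 fold change -3.35, SE 0.24, adjusted p = 0.000597) and from at least 21.5 to at most 3.82 RPKM in Nox4 KO (-2.98, SE 0.20, adjusted p = 0.00128). Thy1 had log2 fold changes of -0.56 (adjusted p = 0.0524) and -0.71 (adjusted p = 0.0604). Endothelial markers summed to at most 5.54 RPKM, keratinocyte markers to at most 0.901 RPKM, adipocyte markers to at most 0.282 RPKM, pericyte markers to at most 0.715 RPKM, Schwann cell and melanocyte markers to at most 1.61 RPKM, and skeletal muscle markers to at most 8.0 RPKM, nearly all of it Des. Myeloid markers ranged from 11.6 to 105.8 RPKM, most of it Lyz2.

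The 9 genes spanned levels from a few reads to the level of Id3, and their order was nearly the same in the 4 groups. In WT control, Id3 stood at 241.7 ± 20.8 RPKM (SD, n = 3) and Id1 at 66.2 ± 11.4 RPKM (SD, n = 3). Grem1 followed at 30.0 ± 6.66 RPKM (SD, n = 3) and Id2 at 17.7 ± 3.49 RPKM (SD, n = 3). The ranges of these 4 genes did not overlap in WT control. Lower down came Nog at 4.95 ± 1.23 RPKM, Bmp6 at 2.48 ± 1.34 RPKM and Bambi at 2.13 ± 0.287 RPKM (SD, n = 3 each), and here the range of Bmp6 overlapped those of both Nog and Bambi. Bmp4 and Bmp2 were close to the limit of detection. The order of neighbours was not fixed beyond their spread in the other groups, since Nog overlapped Id2 in Nox4 KO control, Bambi overlapped Nog after TGF-β2, and Grem1 overlapped Id1 in stimulated Nox4 KO cells. In every library the Id genes together outweighed Grem1 and Nog together, and these outweighed the 3 ligands together. Per library, Grem1 plus Nog was 9.75 to 33.7 times the sum of Bmp2, Bmp4 and Bmp6 in the controls and 11.1 to 113 times after TGF-β2.

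**Figure D1:**
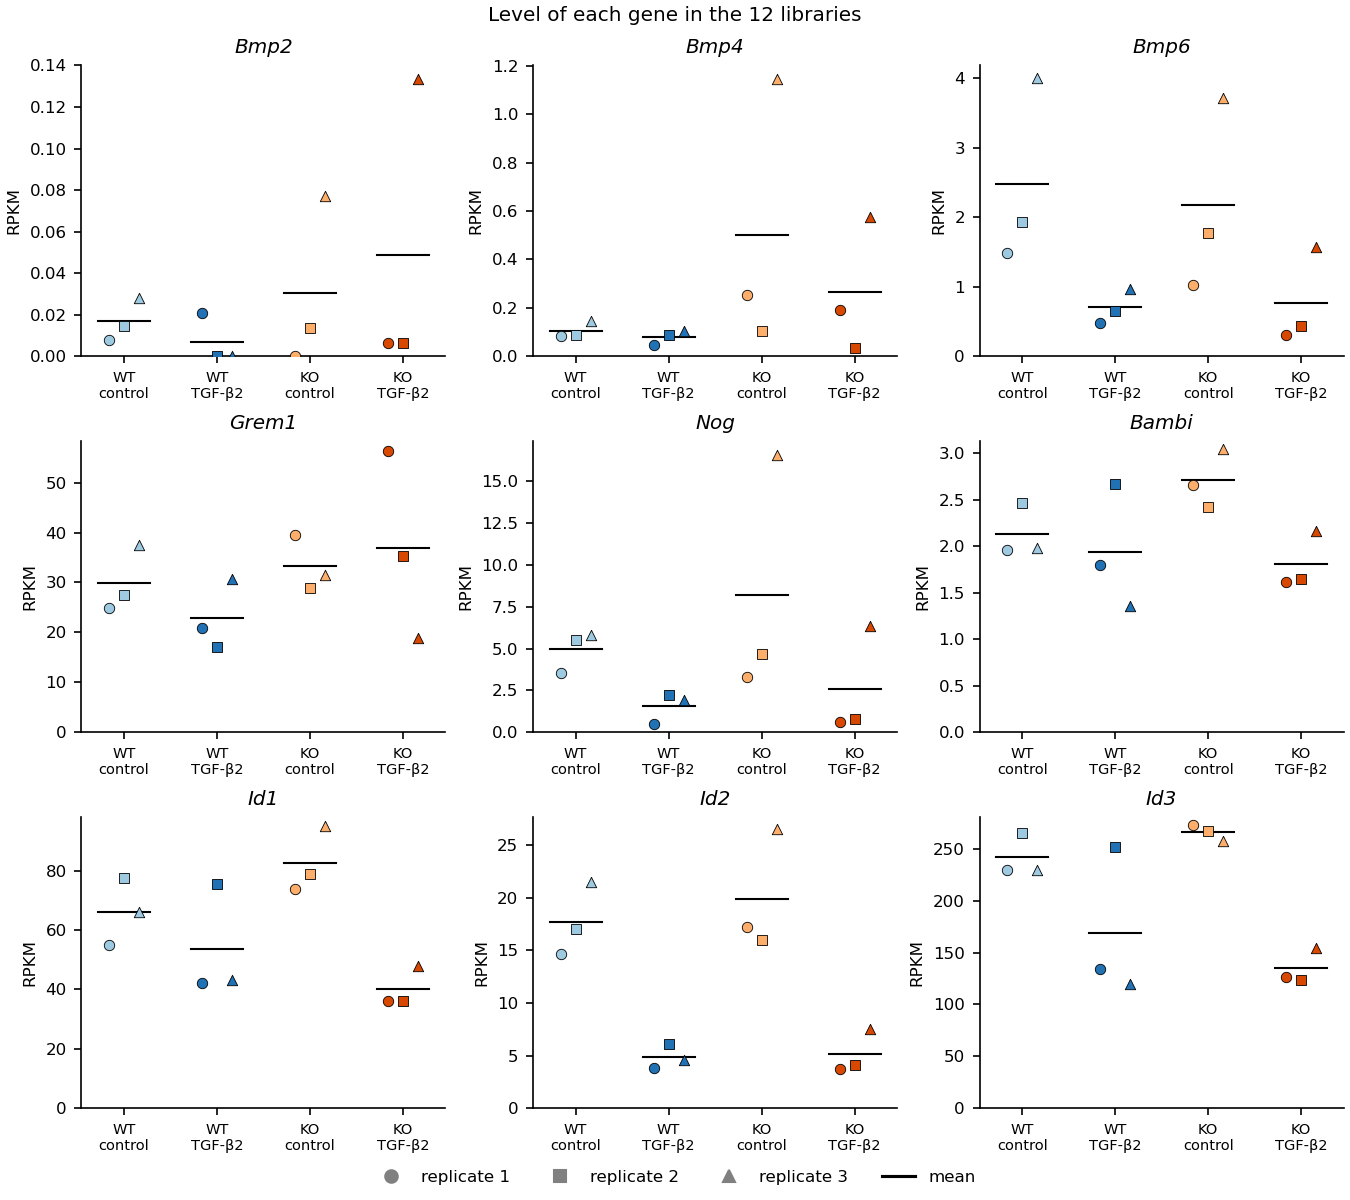
Level in RPKM of the 9 genes in each library, by group, with 1 panel per gene and a linear axis from 0. Symbols mark the replicate number and bars the group mean. In Id1 and Id3, the WT library with TGF-β2 replicate 2 lies among the control libraries, and in Nog and Bmp4 the Nox4 KO replicate 3 libraries lie above the others of their group.

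The promoters of Id2, Id3, Bmp6 and Grem1 are shown because Id2 and Id3 were both lower with TGF-β2 in Nox4 KO, Bmp6 was the most abundant of the 3 ligands, and Grem1 passed in neither genotype. They are RefSeq sequences of the build GRCm38.p6, from 250 bases before to 50 bases after the annotated start, 5′ to 3′. The search covered 5 of the 9 genes, these 4 and Bmp4. Bmp2, Nog and Id1 had no entry among the promoters used, and Bambi was left out of the search. Capitals mark the hexamer GGCGCC, part of the GC-rich SMAD sites described in Id promoters, and the tetramer GTCT, which SMAD4 can bind. Both were searched on both strands, so GTCT also appears as AGAC, and no match overlapped another.
Id2, chr12:25096043-25096342, minus strand: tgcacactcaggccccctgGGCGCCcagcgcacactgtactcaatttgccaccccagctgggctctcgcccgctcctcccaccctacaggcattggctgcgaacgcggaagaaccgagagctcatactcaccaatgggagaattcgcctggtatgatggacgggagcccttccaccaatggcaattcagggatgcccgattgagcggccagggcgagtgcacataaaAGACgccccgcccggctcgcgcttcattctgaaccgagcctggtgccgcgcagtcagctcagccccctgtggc
Id3, chr4:136143572-136143871, plus strand: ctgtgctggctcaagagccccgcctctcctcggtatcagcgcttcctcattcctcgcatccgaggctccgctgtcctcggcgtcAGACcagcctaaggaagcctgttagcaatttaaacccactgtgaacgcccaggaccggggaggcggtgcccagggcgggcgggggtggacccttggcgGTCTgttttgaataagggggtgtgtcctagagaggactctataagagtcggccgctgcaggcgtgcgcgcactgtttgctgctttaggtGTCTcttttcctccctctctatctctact
Bmp6, chr13:38345466-38345765, plus strand: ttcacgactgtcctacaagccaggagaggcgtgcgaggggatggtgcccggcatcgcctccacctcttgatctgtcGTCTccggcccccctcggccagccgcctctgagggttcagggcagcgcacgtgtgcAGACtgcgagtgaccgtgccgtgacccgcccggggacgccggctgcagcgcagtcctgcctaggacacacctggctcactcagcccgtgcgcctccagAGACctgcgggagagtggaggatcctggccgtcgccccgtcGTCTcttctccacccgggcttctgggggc
Grem1, chr2:113758599-113758898, minus strand: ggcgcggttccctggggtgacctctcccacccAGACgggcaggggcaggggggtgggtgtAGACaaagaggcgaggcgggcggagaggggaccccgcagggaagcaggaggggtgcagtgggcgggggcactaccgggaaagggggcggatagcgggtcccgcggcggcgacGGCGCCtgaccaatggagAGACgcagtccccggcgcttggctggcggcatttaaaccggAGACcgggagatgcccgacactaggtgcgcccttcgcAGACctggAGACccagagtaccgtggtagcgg
GGCGCC occurred 1 time in Id2 and 1 time in Grem1 and was not found in Id3, Bmp6 or Bmp4. Its first base was 231 bases before the start in Id2 and 78 bases before it in Grem1. Of all 32851 RefSeq promoters of this length, 11.9% held it. GTCT was found 1 time in Id2, 3 times in Id3, 4 times in Bmp6, 6 times in Grem1 and 2 times in Bmp4, and 88.0% of all promoters held it. The combination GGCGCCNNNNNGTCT, present in 0.0731% of all promoters, was found in none of the 5. These matches are letters in a window and say nothing of binding.

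Among the ligands, Bmp6 was measurable, while Bmp2 and Bmp4 were represented by few reads. Bmp6 lies on chromosome 13 (38345107 to 38500302, GRCm38), and 224 bases of its exons are overlapped by Txndc5 on the opposite strand. As it is not stated whether the counting used the strand, reads there cannot be assigned to one of the pair. In WT control, Bmp6 stood at 1.49, 1.93 and 4.0 RPKM (replicates 1, 2 and 3), and with TGF-β2 at 0.48, 0.66 and 0.97 RPKM. The groups did not overlap, and replicate 3 was the highest in both. Bmp6 fell by 1.77 on the log2 scale (SE 0.42, 3.41-fold) and was called (edgeR quasi-likelihood, adjusted p = 0.0256). The call was lost without control replicate 2 (adjusted p = 0.0542), control replicate 3 (log2 fold change -1.25, adjusted p = 0.0569), TGF-β2 replicate 1 (adjusted p = 0.0878) or TGF-β2 replicate 2 (adjusted p = 0.0571). Within replicate numbers, stimulated WT libraries held 32.3%, 34.1% and 24.2% of the control level. With the replicate number as a block, Bmp6 fell by 1.71 in WT (SE 0.16, adjusted p = 0.00139), though pairing by number was less clear in WT than in Nox4 KO.

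In Nox4 KO, Bmp6 stood at 1.02, 1.78 and 3.72 RPKM in control and at 0.31, 0.44 and 1.57 RPKM with TGF-β2. Replicate 3 was again the highest in both groups, and its stimulated library lay above the control of replicate 1, so the groups overlapped. Its log2 fold change of -1.40 (SE 0.73) missed the test (adjusted p = 0.190). Same-numbered Nox4 KO libraries deviated together across genes, and each stimulated library held 29.9%, 24.9% and 42.2% of the Bmp6 level of the control with its number. With the replicate number as a block, Bmp6 fell by 1.52 (SE 0.18, adjusted p = 0.00187). Without stimulated replicate 3 and without the block, the log2 fold change was -2.43 (adjusted p = 0.0353).

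Bmp4 and Bmp2 did not reach the level at which genes were tested. Bmp4 lies on chromosome 14 (46383520 to 46390669), with 89 exonic bases overlapped by Gm15217 on the opposite strand. It received 6, 7 and 12 reads in WT control, 4, 7 and 8 in WT with TGF-β2, 20, 9 and 86 in Nox4 KO control, and 17, 3 and 50 in Nox4 KO with TGF-β2. The Nox4 KO replicate 3 libraries held most of these reads, and the highest level, in Nox4 KO control replicate 3, was 1.15 RPKM. Bmp2, on chromosome 2 (133552159 to 133562885), received 1, 2 and 4 reads, 3, 0 and 0 reads, 0, 2 and 10 reads, and 1, 1 and 20 reads in the same order of groups. A count of 0 allows up to 3 reads, so differences of Bmp2 were not detectable at this depth except for the 2 Nox4 KO replicate 3 libraries, which were the highest. Exact two-sided permutation tests on log2(CPM + 0.5) values gave p = 0.3 (Bmp2) and p = 0.6 (Bmp4) for TGF-β2 in WT, and p = 0.8 and p = 0.6 in Nox4 KO, where 3 libraries against 3 can give no p under 0.1.

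Of the secreted antagonists, Nog had lower mean levels with TGF-β2 in both genotypes, on either side of the threshold depending on the fit, and Grem1 passed in neither. Nog is a gene of 1 exon on chromosome 11 (89300638 to 89302332). It stood at 3.54, 5.52 and 5.79 RPKM in WT control and at 0.52, 2.21 and 1.93 RPKM in WT with TGF-β2. All stimulated libraries lay below all controls, with replicate 1 the lowest. The log2 fold change was -1.64 (SE 0.49, 95% interval -2.80 to -0.48), and the adjusted p of 0.0532 was just above the threshold. Nog passed without stimulated replicate 1 (-1.25, adjusted p = 0.0376) and without stimulated replicate 2 (-1.97, adjusted p = 0.0478), and by DESeq2 (-1.64, adjusted p = 0.00457). It also passed with the replicate number as a block (-1.78, SE 0.28, adjusted p = 0.00772). Within replicate numbers, stimulated WT libraries held 14.7%, 39.9% and 33.4% of the control level.

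In Nox4 KO, Nog stood at 3.33, 4.65 and 16.6 RPKM in control and at 0.63, 0.78 and 6.32 RPKM with TGF-β2. Both replicate 3 libraries were several times above the others of their group, and stimulated replicate 3 exceeded the controls of replicates 1 and 2. The unblocked log2 fold change of -1.57 (SE 1.04) did not pass (adjusted p = 0.289). Within replicate numbers, stimulated cells held 19.0%, 16.8% and 38.1% of the control level, and with the block Nog fell by 1.87 (SE 0.25, adjusted p = 0.00299). Without stimulated replicate 3, the unblocked value was -3.42 (adjusted p = 0.0338).

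Grem1, on chromosome 2 (113746164 to 113758646), was the more abundant antagonist of this pair in every library. In WT it stood at 24.9, 27.4 and 37.5 RPKM in control and 20.9, 17.1 and 30.7 RPKM with TGF-β2, with overlapping ranges and a log2 fold change of -0.34 (SE 0.24, adjusted p = 0.341). In Nox4 KO it stood at 39.5, 28.8 and 31.6 RPKM in control and 56.4, 35.3 and 18.8 RPKM with TGF-β2, so that the stimulated libraries held both the highest and the lowest value. The log2 fold change was 0.23 (SE 0.38, adjusted p = 0.668), and without stimulated replicate 1 it was -0.21. Myeloid markers varied between the same libraries: all 5 were detected in every library, none at 0, and their sum was 22.6 to 105.8 RPKM in WT control, 18.1 to 72.0 in WT with TGF-β2, 18.0 to 81.0 in Nox4 KO control and 11.6 to 58.3 in Nox4 KO with TGF-β2. In stimulated Nox4 KO cells the sum was 58.3, 20.7 and 11.6 RPKM in replicates 1, 2 and 3, and in stimulated WT cells it was 29.7, 18.1 and 72.0 RPKM, in both the same order as Grem1. In control it was 81.0, 29.2 and 18.0 RPKM in Nox4 KO and 40.1, 22.6 and 105.8 RPKM in WT, and there the order differed from that of Grem1. The part of these cells in the result was not tested. In bulk samples, fewer cells of a type and less RNA per cell cannot be told apart. Nog made up 12.5%, 16.8% and 13.4% of the sum of both antagonists in WT control and 2.43%, 11.4% and 5.93% with TGF-β2. In Nox4 KO its share was 7.77%, 13.9% and 34.4% in control and 1.11%, 2.17% and 25.1% with TGF-β2, with replicate 3 again apart.

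Bambi, the pseudoreceptor, was expressed at a low and even level. It stood at 1.96, 2.47 and 1.98 RPKM in WT control and 1.80, 2.67 and 1.36 RPKM in WT with TGF-β2. Stimulated replicate 2 was the highest and replicate 3 the lowest of the 6 libraries, and the log2 fold change was -0.10 (SE 0.25, adjusted p = 0.798), turning to 0.04 without control replicate 2 and to 0.10 without stimulated replicate 3. In Nox4 KO, control libraries held 2.66, 2.42 and 3.05 RPKM and stimulated libraries 1.61, 1.65 and 2.17 RPKM. Here the groups did not overlap, and Bambi fell by 0.49 (SE 0.15, 1.41-fold, adjusted p = 0.0483). The result was at the edge of the threshold: it passed with the replicate block (adjusted p = 0.00598) and without stimulated replicate 3 (adjusted p = 0.0172), and missed it without any one of the other 5 libraries (adjusted p from 0.0754 to 0.160).

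Of the 3 Id genes, Id2 had the largest fold changes and was the one called in both genotypes. Id2 lies on chromosome 12 (25093799 to 25097140). It stood at 14.6, 17.0 and 21.5 RPKM in WT control and 3.79, 6.13 and 4.55 RPKM in WT with TGF-β2. Every stimulated library lay well below every control, and Id2 fell by 1.84 (SE 0.20, 3.57-fold, adjusted p = 0.00184). In Nox4 KO it went from 17.2, 15.9 and 26.5 RPKM to 3.71, 4.07 and 7.54 RPKM, with replicate 3 the highest in both groups. The groups were again apart, and Id2 fell by 1.87 (SE 0.32, 3.66-fold, adjusted p = 0.0109). In WT it passed in all 6 fits that left out 1 library, and in Nox4 KO in 5 of 6, the exception being stimulated replicate 2 (-1.74, adjusted p = 0.0525).

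Id3, on chromosome 4 (136143497 to 136145755), was the most abundant of the 9 genes. It stood at 229.8, 265.8 and 229.6 RPKM in WT control and at 134.0, 251.6 and 120.1 RPKM with TGF-β2. Stimulated replicates 1 and 3 lay far below the controls, while replicate 2 lay within the range of the controls, so the ranges overlapped and the log2 fold change of -0.49 (SE 0.27, 95% interval -1.13 to 0.15) did not pass (adjusted p = 0.233). Without stimulated replicate 2, Id3 fell by 0.87 (adjusted p = 0.00565). In Nox4 KO, Id3 stood at 273.1, 267.6 and 258.1 RPKM in control and at 126.7, 123.7 and 154.2 RPKM with TGF-β2. The groups were widely separated, and Id3 fell by 0.90 (SE 0.10, 1.86-fold, adjusted p = 0.00371).

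Id1, on chromosome 2 (152736251 to 152737410) and of 1 exon, followed Id3. It stood at 54.9, 77.6 and 66.0 RPKM in WT control and at 42.0, 75.4 and 43.3 RPKM with TGF-β2, where replicate 2 was again at the level of the controls. The log2 fold change was -0.27 (SE 0.24, 95% interval -0.85 to 0.31, adjusted p = 0.452). Without stimulated replicate 2, Id1 fell by 0.58 (adjusted p = 0.0353). In Nox4 KO, Id1 stood at 73.7, 78.7 and 95.1 RPKM in control and at 36.1, 36.2 and 47.8 RPKM with TGF-β2. The groups did not overlap, and Id1 fell by 0.96 (SE 0.14, 1.94-fold, adjusted p = 0.00670), just short of the 2-fold limit. Id1 and Id3 passed in Nox4 KO in all 6 fits that left out 1 library.

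The Id pool was smaller in 5 of the 6 stimulated libraries than in any control of its genotype. The sum of Id1, Id2 and Id3 was 299.3, 360.5 and 317.1 RPKM in WT control and 179.8, 333.1 and 167.9 RPKM with TGF-β2. In Nox4 KO it was 364.0, 362.3 and 379.7 RPKM in control and 166.5, 164.0 and 209.5 RPKM with TGF-β2. Id3 made up 68.0% to 76.8% of this sum over the 12 libraries, and Id2 4.40% to 6.99% in the controls and 1.84% to 3.60% with TGF-β2. The level of Id3 per length depends on the exons counted, and with the exons of all transcripts its mean was 172.5 RPKM in WT control in place of 241.7 RPKM, which left the fold changes as they were.

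The stimulated WT library of replicate 2, which held control levels of Id1 and Id3, differed from the controls at other genes. Ccn2, a direct TGF-β target, stood at 2761, 3158 and 2991 RPKM in the stimulated WT libraries against 731 to 1190 RPKM in the controls, so replicate 2 was well above the controls there. Id2 was lower there too, at 6.13 RPKM. Smad6, an inhibitory SMAD, stood at 7.42, 15.4 and 10.2 RPKM with TGF-β2, and Atoh8, a helix-loop-helix factor, at 11.9, 24.8 and 16.2 RPKM, with replicate 2 the highest of the group at both. Acta2 was also highest in it, at 7853 RPKM against 5094 and 5232 RPKM. Across all genes this library deviated most from its group mean, with a root mean square of 0.327 on the log2 scale, in a range of 0.150 to 0.327 over the 12 libraries.

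**Figure D2:**
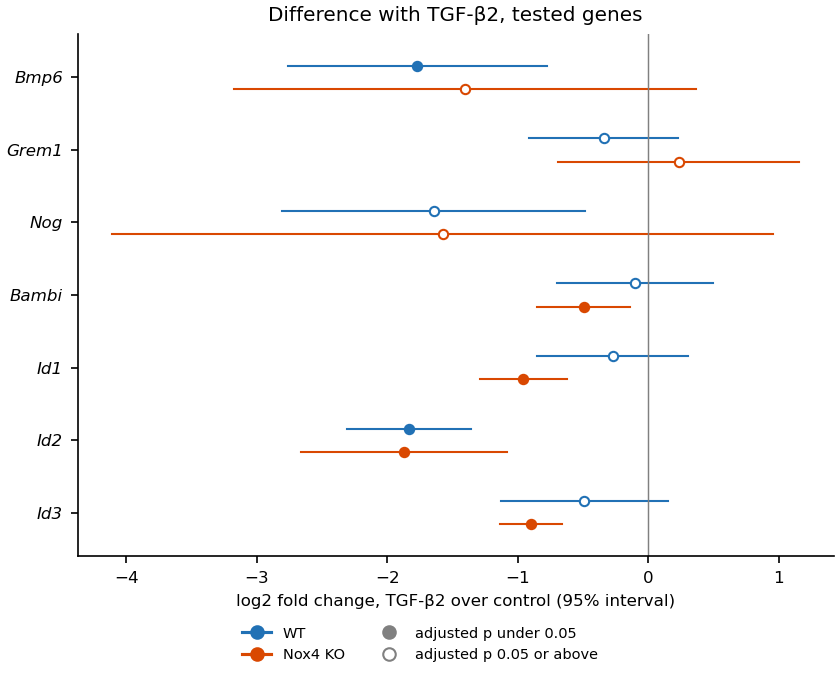
log2 fold change with TGF-β2 over control for the 7 tested genes, in WT (blue) and Nox4 KO (orange), with the 95% interval of the unblocked fit. Filled points have an adjusted p under 0.05: Id2 in both genotypes, Bmp6 in WT, and Bambi, Id1 and Id3 in Nox4 KO.

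In counts, 7 of the 9 genes were tested. In WT, 2 passed as lower with TGF-β2 (Id2 and Bmp6), both also called, and 0 passed as higher. Over all 10743 genes tested in WT, 12.2% passed as lower and 10.4% as higher, and 5.09% were called lower and 2.62% higher. In Nox4 KO, 4 passed as lower (Id1, Id2, Id3 and Bambi), of which 1 was called, and 0 as higher, beside 14.9% and 15.1% of 10809 genes passing as lower and higher, and 4.58% and 2.22% called. No gene of the 7 had an unadjusted p under 0.05 in the higher direction in either genotype, and DESeq2 called 3 in WT (Nog in addition) and 1 in Nox4 KO. The ranges of control and stimulated libraries did not overlap for 3 of the 7 in WT and 4 of the 7 in Nox4 KO, where 45.2% and 48.5% of all tested genes had separate ranges, so these counts are near the background. The median log2 fold change of the 7 was -0.49 in WT and -0.96 in Nox4 KO, beside -0.003 and -0.014 over all genes tested. Low sums of markers of other cell types moved with the same contrast. The endothelial sum was 2.53 to 4.29 RPKM in WT control and 1.68 to 2.45 RPKM with TGF-β2, and 3.04 to 5.54 and 2.42 to 2.94 RPKM in Nox4 KO, with all 5 markers detected and the defining Pecam1 and Cdh5 at no more than 0.133 and 0.0946 RPKM in any library. The sum of the 4 Schwann cell and melanocyte markers was 1.19 to 1.61 RPKM in WT control and 0.833 to 1.03 RPKM with TGF-β2, and 1.19 to 1.54 and 0.748 to 0.917 RPKM in Nox4 KO. Both sums were thus lower in every stimulated library than in every control of its genotype. The sum of the 3 pericyte markers was 0.298 to 0.664 and 0.170 to 0.256 RPKM in WT, and 0.364 to 0.715 and 0.238 to 0.382 RPKM in Nox4 KO, where the ranges overlapped. The part of these cells in the lower levels of the Id genes, Bmp6 and Nog was not tested.

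The other genes of the pathway moved in both directions. Of a list of 53 BMP pathway genes that includes the 9, 35 were expressed well enough to be tested. In WT, 6 passed as higher and 7 as lower, with a median of -0.11, and in Nox4 KO 9 passed as higher and 11 as lower, with a median of 0.03. Over all genes tested in these fits, 10.4% passed as higher and 12.2% as lower in WT, and 15.1% and 14.9% in Nox4 KO. Without the stimulated WT library of replicate 2, the counts in WT were 9 higher and 9 lower: Bmpr1b, Bmpr2 and Runx2 joined the first, and Nog, Id1 and Id3 the second, which Bmp6 left. Over all genes, 15.3% passed as higher and 16.3% as lower without that library, so more genes passed in general. With the replicate number as a block, the counts in Nox4 KO were 11 higher and 16 lower, beside 25.2% and 28.8% of all genes tested. The genes added were Gdf6 and Msx2 (higher) and Bmp6, Nog, Acvrl1, Rgmb and Msx1 (lower). In WT the block added Msx2 (higher) and Nog, Chrd and Twsg1 (lower), and it raised calls over all genes too. Values below are unblocked unless the block is named.

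Of 13 ligands, only Bmp6 and Gdf6 were tested. Gdf6, a growth and differentiation factor of the same family, was the most abundant, at 6.41 to 7.25 RPKM in WT control and 9.18 to 11.9 RPKM with TGF-β2. It rose by 0.60 (SE 0.12, adjusted p = 0.0163) in WT and had a log2 fold change of 0.80 (adjusted p = 0.181) in Nox4 KO, where the block gave 0.77 (adjusted p = 0.0101). Of the ligands that were not tested, Bmp4 and Bmp8a reached at most 1.15 and 1.08 RPKM in any library, and the other 9 stayed at or below the 0.628 RPKM of Gdf5.

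The 8 receptors and co-receptors were all tested. Acvr1, a type I receptor, rose in both genotypes, from 26.0 to 27.5 RPKM in WT control to 49.8 to 52.1 RPKM with TGF-β2 (log2 fold change 0.99, SE 0.07, adjusted p = 0.000615) and by 1.10 (SE 0.07, adjusted p = 0.00128) in Nox4 KO. In Nox4 KO the type II receptor Bmpr2 rose by 1.07 (SE 0.14, adjusted p = 0.00522) and the type I receptor Bmpr1b by 0.65 (SE 0.10, adjusted p = 0.00857). In WT, Bmpr2 had a log2 fold change of 0.50 (adjusted p = 0.204), and its level was 12.0, 7.55 and 15.7 RPKM in the stimulated libraries, with replicate 2 at the level of the controls as for Id1 and Id3. Without that library Bmpr2 rose by 0.75 (adjusted p = 0.0156). Rgma, a BMP co-receptor, fell by 1.44 in WT (SE 0.25, adjusted p = 0.00928) and by 1.01 in Nox4 KO (SE 0.12, adjusted p = 0.00426). With the block, the type I receptor Acvrl1 fell by 0.33 (adjusted p = 0.00305) and the co-receptor Rgmb by 0.19 (adjusted p = 0.0306) in Nox4 KO.

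Among 12 secreted antagonists and modulators, 8 were tested. Chrd, which encodes the BMP-binding Chordin, fell by 0.75 (SE 0.21, adjusted p = 0.0390) in Nox4 KO and had a log2 fold change of -0.62 (adjusted p = 0.0534) in WT. Twsg1, a partner of Chordin, fell by 0.23 (SE 0.07, adjusted p = 0.0435) in Nox4 KO. With the block, Chrd fell by 0.62 (adjusted p = 0.0136) and Twsg1 by 0.40 (adjusted p = 0.0468) in WT.

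The intracellular genes moved in both directions. Of the SMADs that carry the BMP signal, Smad9 fell by 1.69 (SE 0.19, adjusted p = 0.00198) in WT and by 1.49 (SE 0.37, adjusted p = 0.0289) in Nox4 KO, while Smad1 and Smad5 passed in neither. Smad6, the inhibitory SMAD of the BMP branch, fell by 1.20 (SE 0.28, adjusted p = 0.0251) and 1.42 (SE 0.41, adjusted p = 0.0448). Smad7, the inhibitory SMAD of the TGF-β branch, rose by 0.82 (SE 0.11, adjusted p = 0.00453) and 0.81 (SE 0.11, adjusted p = 0.00554). The ubiquitin ligases Smurf1 and Smurf2 rose by 0.49 and 0.61 in WT (adjusted p = 0.0267 and 0.0197) and by 0.73 and 0.80 in Nox4 KO (adjusted p = 0.00423 and 0.00384). The common partner Smad4 rose by 0.19 (adjusted p = 0.0456) in Nox4 KO, with overlapping ranges.

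Of 11 target transcription factors, 8 were tested. Id4, the fourth member of the Id family, had larger fold changes than Id1, Id2 or Id3, a difference that was not tested. It fell from 20.3 to 24.9 RPKM in WT control to 2.52 to 4.04 RPKM with TGF-β2 (log2 fold change -2.81, SE 0.18, adjusted p = 0.000423), and by 2.96 (SE 0.26, adjusted p = 0.00241) in Nox4 KO. Atoh8 fell by 1.52 (SE 0.25, adjusted p = 0.00785) and 1.76 (SE 0.34, adjusted p = 0.0146). Runx2, an osteoblast factor, rose by 0.68 (SE 0.15, adjusted p = 0.0219) in Nox4 KO. The homeobox genes Msx1 and Msx2 passed in Nox4 KO with the block alone, at -0.39 (adjusted p = 0.0283) and 0.40 (adjusted p = 0.0385). In WT with the block, Msx2 rose by 0.97 (SE 0.14, adjusted p = 0.00599) and Msx1 did not pass (-0.11, adjusted p = 0.670). Of the 3 E proteins that Id proteins bind, Tcf4 fell by 1.04 (SE 0.20, adjusted p = 0.0120) in WT and by 0.55 (SE 0.16, adjusted p = 0.0435) in Nox4 KO, while Tcf3 and Tcf12 passed in neither. With the block Tcf3 fell by 0.22 (adjusted p = 0.0106) in Nox4 KO.

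**Figure D3:**
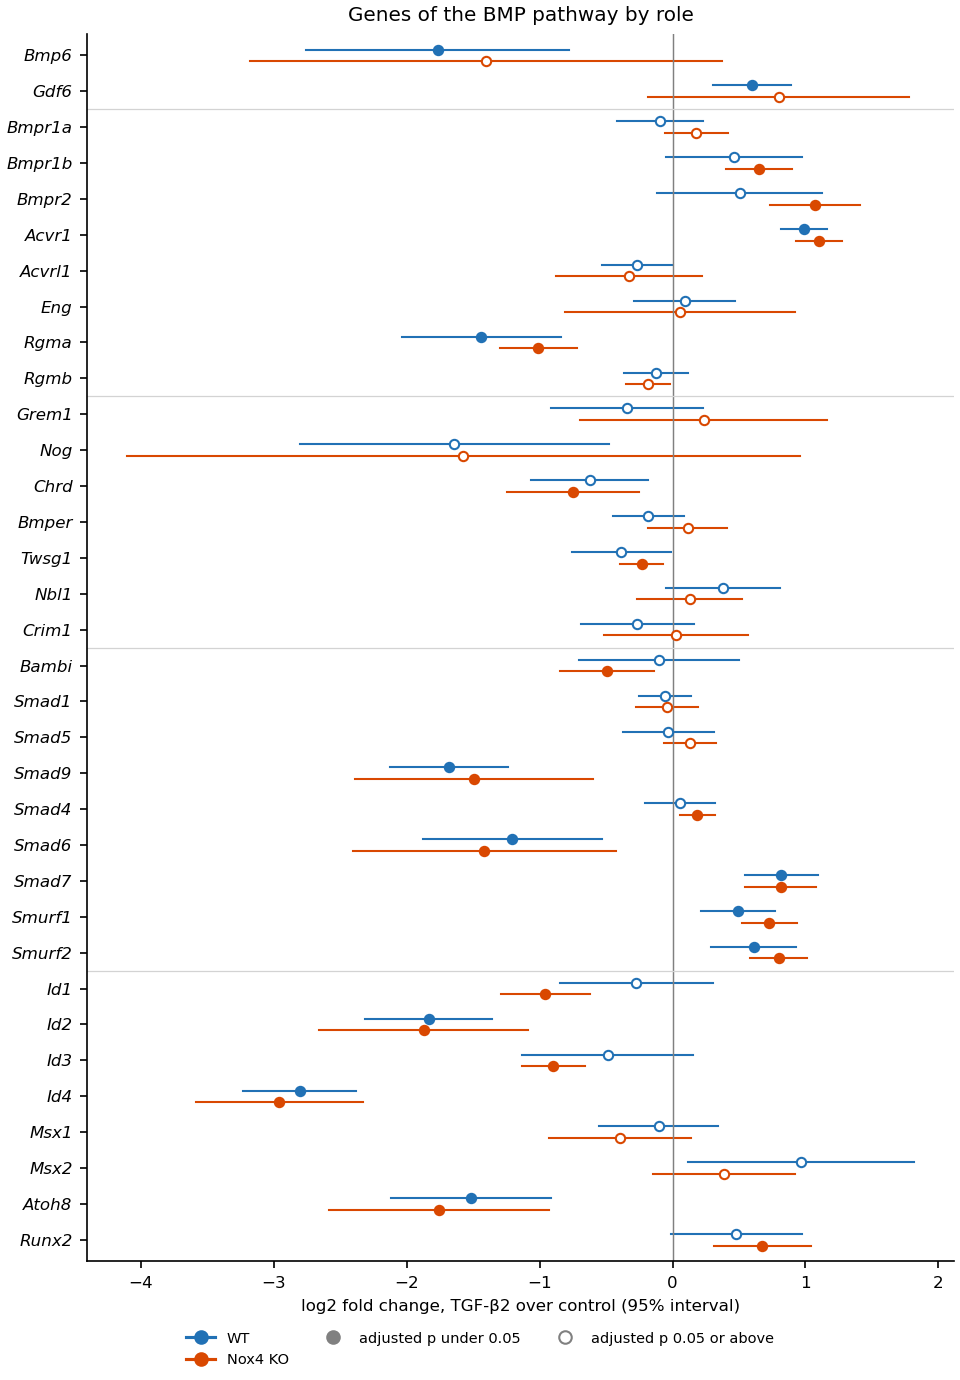
log2 fold change with TGF-β2 over control for tested genes of the BMP pathway list, in WT (blue) and Nox4 KO (orange), with 95% intervals of the unblocked fit and filled points for an adjusted p under 0.05. Grey lines separate ligands, receptors and co-receptors, secreted antagonists and modulators, intracellular genes, and target transcription factors. Id4 lies farthest to the left and Acvr1 is filled to the right in both genotypes.

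Of the genes that passed, some did so in every fit that left out 1 library. In WT these were Acvr1 and Smad7 (higher) and Rgma, Smad9, Id2, Id4, Atoh8 and Tcf4 (lower). The others described here passed in 1 to 4 of 6 such fits: Gdf6 in 4, Bmp6, Smurf2 and Smad6 in 2, and Smurf1 in 1. In Nox4 KO, Bmpr1b, Bmpr2, Acvr1, Smad7, Smurf1 and Smurf2 (higher) and Rgma, Id1, Id3 and Id4 (lower) passed in every such fit. The others described here passed in 0 to 5 of 6: Id2 and Atoh8 in 5, Chrd and Tcf4 in 2, Bambi, Smad9, Smad6 and Runx2 in 1, and Twsg1 and Smad4 in 0.

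Between genotypes, none of the genes passed. In control, Bambi was 0.30 higher in Nox4 KO than in WT on the log2 scale (95% interval -0.03 to 0.63, adjusted p = 0.828) and Id1 0.28 higher (-0.07 to 0.62, adjusted p = 0.828). Id3 differed by 0.10 (-0.11 to 0.31), Id2 by 0.13 (-0.39 to 0.64) and Grem1 by 0.12 (-0.30 to 0.53), so that differences of 2-fold lay outside these intervals for 5 of the 7 genes. The intervals of Nog (-0.77 to 2.12, around 0.67) and Bmp6 (-1.52 to 1.07, around -0.23) were wider and held 2-fold differences. Without Nox4 KO control replicate 3, the difference of Nog turned to -0.33. Of all 10767 genes, edgeR passed 0 (0% called), 5.54% had an unadjusted p under 0.05 and DESeq2 called 6. The ranges of the genotypes were separate for 13.6% of all genes and for 0 of the 7.

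With TGF-β2, the differences were similar in size to their errors. Id1 was 0.39 lower in Nox4 KO (95% interval -0.94 to 0.16) and Id3 0.29 lower (-0.92 to 0.34), each with an adjusted p of 0.838. Without the WT library of replicate 2, Id1 differed by -0.10 and Id3 by 0.08. Grem1 was 0.70 higher (-0.28 to 1.69), Nog 0.76 higher (-1.52 to 3.03), Id2 0.11 higher (-0.61 to 0.82) and Bambi 0.07 lower (-0.67 to 0.53). A 2-fold difference lay outside the intervals of Id1, Id2, Id3 and Bambi and within those of Grem1 and Nog. Bmp6 was below the level for testing in both stimulated groups. edgeR passed 0 of 10439 genes (0%), 3.23% had an unadjusted p under 0.05 and DESeq2 called 6, and separate ranges were found for 10.1% of all genes and 0 of the 6. Exact permutation tests for the genes that were not tested gave p between 0.2 and 0.9 in both genotype comparisons. Fitted without the filter, Bmp4 was 2.17 higher in Nox4 KO control than in WT control (SE 0.85, adjusted p = 0.848), with 86 of its reads in replicate 3.

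The effect of TGF-β2 was not shown to differ between genotypes for any of the genes. Id1, Id3 and Bambi passed in Nox4 KO and not in WT, and the test of the interaction gave -0.67 for Id1 (95% interval -1.32 to -0.01, unadjusted p = 0.0474, adjusted p = 0.854), -0.39 for Id3 (-1.06 to 0.28, adjusted p = 0.854) and -0.38 for Bambi (-1.05 to 0.30, adjusted p = 0.854). Bmp6 passed in WT and not in Nox4 KO, with an interaction of 0.38 (-1.61 to 2.37). Id2 had an interaction of -0.02 (-0.90 to 0.86), Nog of 0.09 (-2.62 to 2.80) and Grem1 of 0.58 (-0.50 to 1.67). Over all 10890 genes the test passed 0 (0%), with 2.68% at an unadjusted p under 0.05 and 6 by DESeq2. Without the stimulated WT library of replicate 2, the interactions were nearer 0, at -0.38 for Id1 and -0.03 for Id3.

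**Figure D4:**
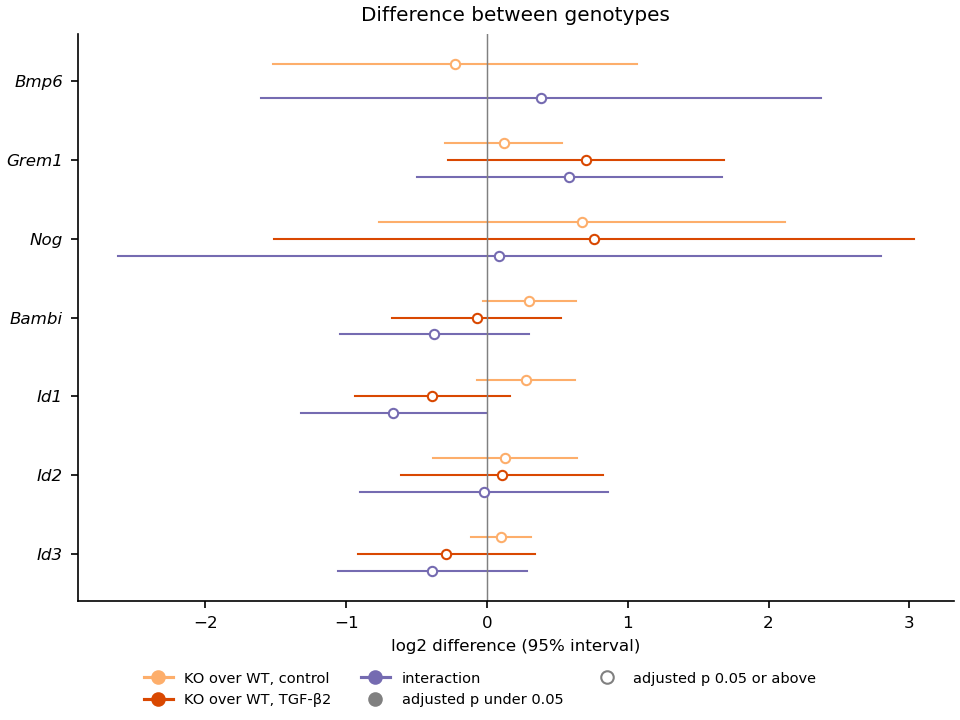
Difference between Nox4 KO and WT on the log2 scale in control and with TGF-β2, and the interaction of genotype and TGF-β2, for the 7 tested genes, with 95% intervals. Open points mark an adjusted p of 0.05 or above, which holds for every point, and Bmp6 has no point with TGF-β2 because it was not tested there.

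The 7 tested genes fell into different profiles over the 12 libraries. Likeness was measured as the root mean square difference of log2(CPM + 0.5) after centring each gene on its mean, so that a smaller value is a closer profile. The closest pair was Id1 and Id3, at 0.160, and Bambi was near both, at 0.228 and 0.259. Id2 was closest to Bmp6, at 0.472, and Bmp6 was at 0.506 from Nog. Grem1 was farthest from Nog, at 1.40. Among 10883 other genes, those with the most similar profiles were Gstm5 and Nme4 for Id1 (0.148 and 0.149), Hcfc1r1 and Gstk1 for Id3 (0.115 and 0.119) and Echdc3 and Arvcf for Id2 (0.147 and 0.174). For Bmp6 they were Efemp1 and Slc24a3 (0.296 and 0.303), for Nog Hsd3b6 and Ica1l (0.358 and 0.370), for Grem1 Tanc2 and Iqgap2 (0.213 and 0.228), and for Bambi Trappc6a and Grcc10 (0.108 and 0.109). Genes with small changes, such as Bambi, have small differences from many genes, and the libraries share their depth and culture, so these are descriptions.

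**Figure D5:**
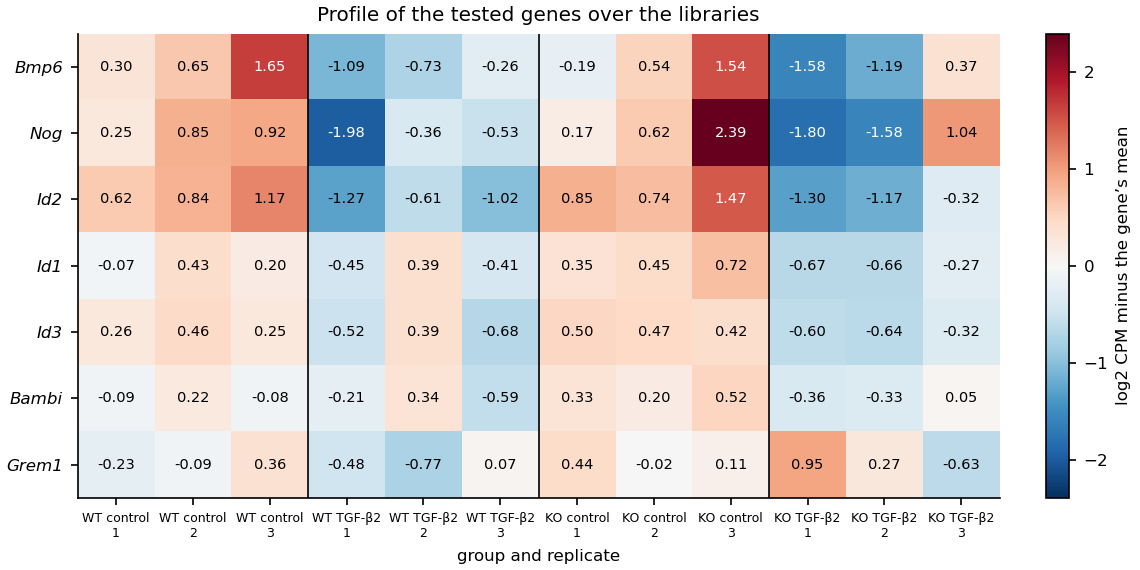
log2 CPM of the 7 tested genes in each of the 12 libraries, centred on the mean of the gene, with red above and blue below that mean. Nog and Bmp6 are red in Nox4 KO control replicate 3 and remain above their mean in stimulated replicate 3, while Id1 and Id3 are 0.39 above their mean in the stimulated WT library of replicate 2 and below it in the other stimulated libraries.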

How the data were processed

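RNA of 12 libraries was measured, 3 in each of 4 groups taken from the sample labels. The authors mapped single-end reads to GRCm38 with STAR 2.4, dropped reads with several locations and used featureCounts 1.4.6 to count those on exons of protein-coding transcripts, merged per gene, and they deposited the raw counts without a filter. All 21556 genes were matched by identifier to GENCODE, which gave lengths for RPKM. Each pair of groups was fitted on its own 6 libraries, and the interaction on all 12, with edgeR 4.0.16 (R 4.3.3, limma 3.58.1) after TMM normalization, on genes with a mean of at least 1 RPKM in at least 1 group. The procedure was tested on simulated counts. Precision is limited by 3 libraries per group. A limit of 3 reads for a count of 0 covers counting error only.

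The 9 genes and the wider lists were chosen with earlier results of these data known. Every one of the 9 was named, together with list genes that passed in any comparison and, for each tested gene, the 2 genes with the closest profile. Some genes of the wider lists are not reported here. In Nox4 KO, a control and a stimulated library with the same number departed alike from the mean of their group (correlations of 0.771, 0.685 and 0.748 across genes), so the numbers pair these samples. This pairing comes from the check and not from the labels. Alternatives were DESeq2 1.42.0, 2 other normalizations, 2 other filters, the replicate block, all 12 libraries in the fit, no fold limit and leaving out each library in turn.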

Additional observations from a re-analysis of the deposited data

How the results depend on the processing

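The fall of Id2 in WT and of Id1 and Id3 in Nox4 KO kept its direction and its side of the threshold under every alternative, and that of Id2 in Nox4 KO under all but 1. The number of the 9 genes called in WT (2) was 1 with all 12 libraries in the fit. In Nox4 KO (1 called) it was 2 with upper-quartile normalization, 2 with library size alone, 3 with the replicate block and 4 at any fold change. For the 53 pathway genes, 11 in place of 7 were called in WT without the filter and 13 at any fold change, and 20 in place of 8 in Nox4 KO at any fold change. Over all genes, WT calls rose from 829 to 1259 without the filter and to 2425 at any fold change, and Nox4 KO calls from 735 to 3243 at any fold change. Without the filter more genes were tested. Between genotypes, where edgeR called 0, DESeq2 called 6 in control, 6 with TGF-β2 and 6 in the interaction, and the fit of all 12 libraries called 1 in control. The cause of the other changes was not tested.

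Leaving out 1 library gave 1 to 2 of the 9 genes called in WT and 0 to 4 in Nox4 KO, 4 to 11 pathway genes and 442 to 892 genes in all in Nox4 KO, and 0 to 1 between genotypes in control and with TGF-β2. Log2 fold changes that turned in such fits were those of Bambi in WT (-0.38 to 0.10) and Grem1 in Nox4 KO (-0.21 to 0.55). Between genotypes in control these were Bmp6 (-0.83 to 0.27), Grem1 (-0.027 to 0.287), Id2 (-0.12 to 0.26) and Nog (-0.33 to 1.04), and with TGF-β2 Bambi (-0.27 to 0.19), Id2 (-0.28 to 0.29), Id3 (-0.47 to 0.077) and Nog (-1.09 to 1.22). In the interaction they were Bmp6 (-0.65 to 0.97), Id2 (-0.40 to 0.20) and Nog (-1.77 to 1.07), and the replicate block turned Nog to -0.17. None of these had passed.

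In WT, same-numbered libraries correlated at 0.073, 0.437 and 0.532. Control replicate 1 correlated better with stimulated replicate 2 (0.308), while replicates 2 and 3 correlated best with their own number. Whether the numbers pair all WT samples is thus not settled. The block there raised calls over all genes from 829 to 925 and those among the 9 from 2 to 3, with Nog at -1.78 (adjusted p = 0.00772). Between genotypes the numbers did not pair the samples. In Nox4 KO the block changed the side of the threshold for Bmp6 and Nog and for no other of the 9. Groups of 3 libraries leave wide intervals for Nog and Bmp6, and the few reads of Bmp2 limit it to near detection.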
